A study of Arabidopsis thaliana with 7 samples.

Results

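In developing Arabidopsis seeds, 65 of 22746 probe sets met a rule for transcripts expressed in wild type on average and lower in every myb5 array. A probe set is a group of short oligonucleotides on the array that together read 1 transcript or a few very similar ones. The 65 were chosen on the deposited linear signals by 3 conditions. The highest of the 3 myb5 signals lay below the lowest of the 4 wild-type signals. The mean myb5 signal was at most 0.75 of the mean wild-type signal, and the mean wild-type signal was at least 50. This floor is near the median signal of the wild-type arrays, 49.0 to 50.8. It holds for the mean only, so single wild-type arrays can be dim. The probe sets of AT5G60630, AT5G18130 and AT4G33810 also met these conditions and were left out. Since the genotype difference chose the members, their myb5 and wild-type values are given as a description, with no test.

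The samples were seeds dissected from siliques of wild-type plants of the Col accession (n = 4 arrays) and of plants carrying the myb5-1 allele (n = 3 arrays), hybridised 1 array per sample. Plants of both genotypes grew at the same time on soil under constant light, and the seeds held embryos from the globular to the walking-stick stage. Per the design text the arrays of a genotype are biological replicates, and the labels name no agent or second allele. Each sample mixes embryo, endosperm and seed coat RNA, so fewer cells of a type and less RNA per cell cannot be told apart. The MYB5 transcript was not analysed by name here. Many members are unnamed in the annotation used, so whether any of them reads MYB5 itself was not tested.

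MYB5 is an R2R3-type MYB transcription factor that works with basic helix-loop-helix proteins and the WD-repeat protein TTG1. Such complexes turn on genes of the outer seed coat, where mucilage is made and the columella forms, and of the inner seed coat, where tannins accumulate. MYB5 also has roles in trichomes, and loss of MYB5 is known to alter seed mucilage.

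Of the 65 members, 25 name 1 gene, 1 names a pair of genes and 39 are unnamed here. Members naming 1 gene made up 38.5%, against 53.4% of all probe sets with a mean wild-type signal of at least 50. The families stated below are background knowledge of these loci and were not read from the tables used here. They are given for 18 of the 25, and the other 7 are named with no role.

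The arrays fell into a pair of sets that cut across genotype. Wild-type replicates 1 and 2 and myb5 replicate 1, called the first set here, separated from wild-type replicates 3 and 4 and myb5 replicates 2 and 3, the second set, on a principal component holding 56.8% of the variance. OLEO3, an oleosin of seed oil bodies, had signals of 4699 and 5364 in the wild-type arrays of the first set and 822 and 1469 in those of the second. In myb5 it had 4435 in the first set and 1225 and 609.6 in the second. Ratios of the named members and of the unnamed members described are therefore also given within each set, and beyond those values the part of this split was not tested. Over all probe sets, the wild-type arrays had median signals of 49.0 to 50.8 and the myb5 arrays of 52.2 to 54.4.

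Most members were modestly lower, and a few were very dim in myb5. The ratio of the mean myb5 signal to the mean wild-type signal ran from 0.0157 to 0.747 with a median of 0.702, while the median over all 11507 probe sets with a wild-type mean of at least 50 was 1.01. The ratio was at most 0.5 in 9 members, above 0.5 and up to 0.6 in 3, above 0.6 and up to 0.7 in 18 and above 0.7 in 35. On the normalized log2 scale, log2(signal + 16), the median difference of the members was -0.47, with a range from -4.52 to -0.38. Mean wild-type signals ran from 53.3 to 4423 with a median of 233.2, and 6 members reached 1000.

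**Figure D1:**
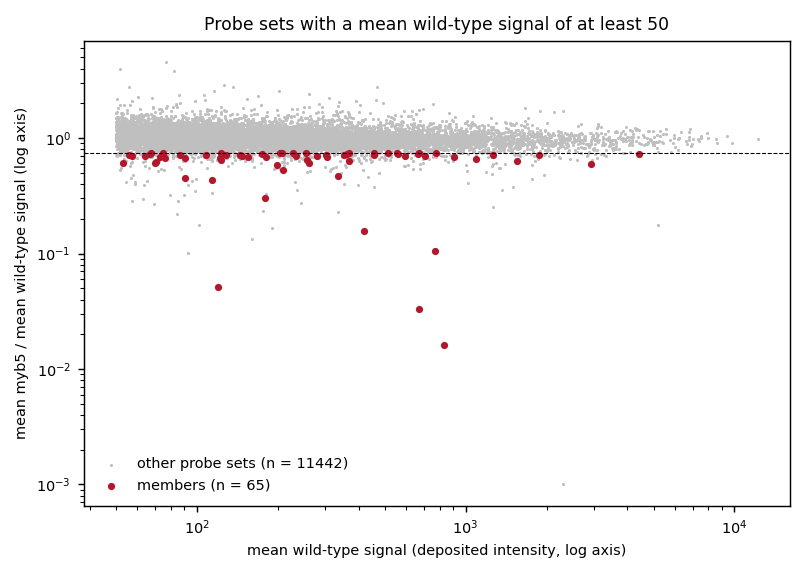
Each point is 1 of the 11507 probe sets with a mean wild-type signal of at least 50, placed by that mean (x axis, log scale) and by the ratio of mean myb5 to mean wild-type signal (y axis, log scale), with a dashed line at a ratio of 0.75. The 65 members (red) lie below the line at all levels, most of them just under it, and other probe sets below the line (grey) overlap between the genotypes or belong to the genes left out.

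The separation of the genotypes was narrow in most members. The lowest wild-type signal divided by the highest myb5 signal had a median of 1.09. It was under 1.1 in 37 members and at least 2 in 3. Over all 22746 probe sets, 1.57% lay lower in every myb5 array and 3.31% lay higher in every myb5 array. Among the probe sets with a wild-type mean of at least 50, 1.93% lay lower and 1.89% lay higher. The full rule was met by 0.286% of the probe sets. Its mirror image, with myb5 as the brighter genotype and the floor of 50 on the myb5 mean, was met by 123 probe sets or 0.541%. A fit across all probe sets called 1 member at an adjusted limma p under 0.05, which is 0.0044% of the probe sets tested. The rule used this contrast, so nothing is read from that count.

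How many probe sets lay lower against higher depended on how the arrays were scaled. As deposited, 65 met the rule and 123 its mirror image, so 34.6% of both together were lower. These counts are not fully alike. The rule was met by 68 before the 3 genes were left out, and the mirror image has its floor of 50 on the myb5 mean. With that floor on the wild-type mean instead, 89 met the mirror image. After quantile normalization the counts were 83 and 82, or 50.3% lower. With each array divided by its median they were 151 and 50, or 75.1% lower. Of the 65 members, 59 met the rule after quantile normalization and all 65 met it after division by the median. Every myb5 array had a higher median than every wild-type array. Division by the median could therefore only widen the members' gaps and lower their ratios, so nothing is read from the 65 of 65. With fewer arrays the genotypes can overlap less often, but the count depended strongly on which array was omitted. Omitting myb5 replicate 1, the only mutant array of the first set, left 581 probe sets meeting the rule and 895 its mirror image. Omitting myb5 replicates 2 and 3 in turn gave 95 and 140 that met the rule. Omitting wild-type replicates 1 to 4 in turn gave 105, 77, 183 and 137. Why these counts differ was not tested.

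The largest differences belonged to 5 unnamed probe sets, and whether any of these reads MYB5 itself was not tested. Probe set 256985_at had wild-type signals of 557, 538, 721 and 876 in replicates 1 to 4 and myb5 signals of 22.2, 28.7 and 16.5. It averaged 673 ± 158 (SD) over the 4 wild-type arrays and 22.5 ± 6.13 over the 3 mutant arrays, and the lowest wild-type signal was 18.7 times the highest myb5 signal. This is the member the fit called, and it was bright in all 4 wild-type arrays and dim in all 3 myb5 arrays of both sets. Its ratio was 0.040 in the first set and 0.028 in the second.

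Probe sets 267122_at and 267125_at had the same order of arrays within wild type. The wild-type signals of 267122_at were 1724, 1002, 245 and 362, against 5.99, 12.8 and 20.5 in myb5. Those of 267125_at were 1504, 763, 398 and 406, against 46.8, 93.1 and 101 in myb5. In both, the wild-type arrays of the first set were brighter than those of the second, and the myb5 array of the first set was the dimmest of all. Wild-type means differed between the sets by a ratio of 4.49 for 267122_at and 2.82 for 267125_at. The myb5 to wild-type ratio of 267122_at was 0.004 in the first set and 0.055 in the second, and that of 267125_at was 0.041 and 0.242.

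Probe set 259751_at ran the other way within wild type. Its signals were 270.3, 215, 490.0 and 697 in wild type and 24.9, 58.2 and 114 in myb5. The second set was the brighter one in both genotypes, and the ratio was 0.102 in the first set and 0.145 in the second.

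Probe sets 248937_at and 260928_at met the rule mainly through the first set. The wild-type signals of 248937_at were 317 and 143 in replicates 1 and 2 but 10.5 and 8.79 in replicates 3 and 4, against 2.59, 8.05 and 7.87 in myb5. Those of 260928_at were 385 and 211, then 60.7 and 59.4, against 58.3, 49.5 and 53.6 in myb5. In the second set the genotypes were nearly level, with ratios of 0.824 and 0.859, while the first set gave 0.011 and 0.195. For 248937_at all signals of the second set lay below the added constant of 16.

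**Figure D2:**
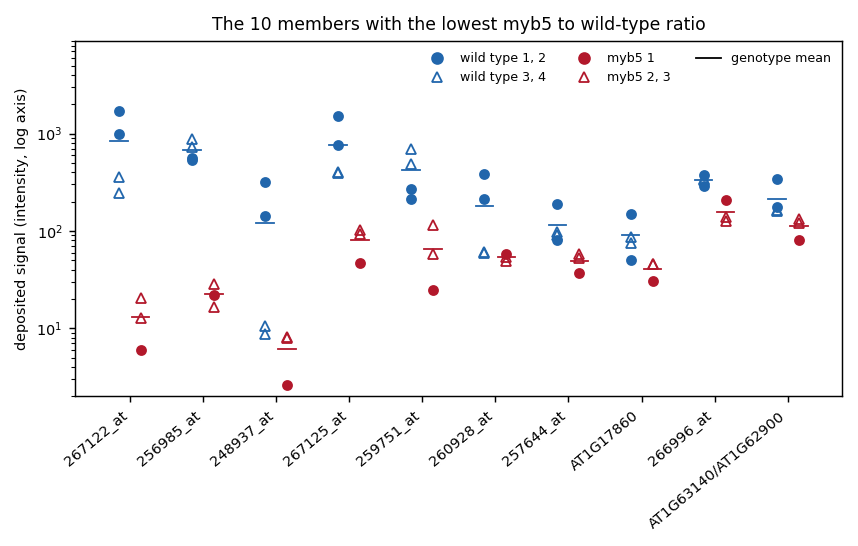
Deposited signals (y axis, log scale) of the 10 members with the lowest myb5 to wild-type ratio in every array, wild type in blue and myb5 in red, with filled circles for the first set, open triangles for the second set and a bar at each genotype mean. Probe set 256985_at is bright in all wild-type arrays, whereas 248937_at and 260928_at are bright in wild-type replicates 1 and 2 only.

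Among the members that name 1 gene, the ratio ran from 0.45 to 0.74 with a median of 0.707, so none of them came near the lowest unnamed probe sets. The lowest ratio belonged to AT1G17860, a Kunitz-type inhibitor of proteases. Its wild-type signals were 150, 50.6, 87.4 and 74.9, and its myb5 signals were 30.4, 45.9 and 46.1. Wild-type replicate 1 stood high, and wild-type replicate 2 lay close above the myb5 arrays. The ratio was 0.304 in the first set and 0.566 in the second.

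A pair of bright hydrolase genes was among the members. AT3G48460, a GDSL-type esterase or lipase, had signals of 1286, 1817, 1333 and 1778 in wild type and 976, 931 and 1043 in myb5. It averaged 1553 ± 283 (SD, n = 4) against 983 ± 56.2 (SD, n = 3), and the log2 difference was -0.59 (standard error 0.15). The myb5 arrays lay close together, and the ratio was nearly the same in the first set (0.629) and the second (0.635). AT5G20060, an alpha/beta hydrolase, was the brightest named member, averaging 1872 ± 356 in the wild-type arrays against 1332 ± 310.1 in the mutant. The mutant signals were 1643, 1331 and 1023, and that of replicate 1 came within 1.02 times of the lowest wild-type signal. Its ratio was 0.806 in the first set and 0.690 in the second.

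Genes of protein synthesis and maturation had 3 members, with ratios from 0.642 to 0.74. AT2G44120 encodes a large-subunit ribosomal protein of the L7 family and had signals of 830.2, 1129, 824 and 852 in wild type and 688, 662 and 527 in myb5. AT5G48760, of the L13 family of ribosomal proteins, had 383, 555, 442 and 442 in wild type and 333, 324 and 355 in myb5. In both genes wild-type replicate 2 was the brightest array, and the ratios of the sets lay close together, at 0.702 and 0.710 for AT2G44120 and at 0.709 and 0.768 for AT5G48760. MAP1A, a methionine aminopeptidase that removes the first methionine of new proteins, had 229, 250.4, 326 and 224 in wild type and 217, 125 and 154 in myb5. Here myb5 replicate 1 lay just under wild type, with a ratio of 0.906 in the first set and 0.507 in the second.

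Genes of the secretory pathway and of membranes had 4 members, with ratios from 0.707 to 0.737. AT1G19970, of the family of receptors that return proteins to the endoplasmic reticulum, had 595, 477, 425 and 566 in wild type and 323, 406 and 411 in myb5. AT2G46170, a reticulon-like protein that shapes endoplasmic reticulum membranes, had 601, 658, 473 and 513 in wild type and 469, 428 and 334 in myb5. The gap between the genotypes was small in both, with the lowest wild-type signal 1.03 and 1.01 times the highest myb5 signal. AT1G04150, a protein with C2 and transmembrane domains, averaged 148 ± 20.5 in wild type and 104 ± 9.39 in myb5. AT4G12980, a cytochrome b561 and DOMON domain protein, averaged 174 ± 32.9 and 126 ± 27.0, also with a gap of 1.01. The sets gave AT1G19970 ratios of 0.603 and 0.825, in the order first and second, while AT4G12980 ran the other way at 0.835 and 0.665. For AT2G46170 they were 0.745 and 0.773, and for AT1G04150 0.731 and 0.675.

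Protein turnover had 2 members. AT1G66620, a RING-type protein of the seven-in-absentia family, had 149, 114, 101 and 129 in wild type and 85.8, 78.9 and 75.2 in myb5, with ratios of 0.654 and 0.669 in the sets. AT3G07090, a putative thiol peptidase of the PPPDE family, averaged 458 ± 78.4 in wild type and 330.0 ± 47.0 in myb5. The ratio of AT3G07090 was 0.619 in the first set and 0.849 in the second, and its gap was 1.01.

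Metabolism, metal binding and stress had 3 members. AT5G22580, a stress-responsive protein with an A/B barrel domain, had 216, 248, 252 and 329 in wild type and 194, 160.4 and 124 in myb5. All 4 wild-type arrays were brighter than myb5 replicate 1, which was the brightest of the mutant arrays, and the ratio was 0.836 in the first set and 0.490 in the second. AT1G56210, a protein with a heavy-metal-binding domain, ran the other way, with ratios of 0.509 and 0.757. AT1G50110, a branched-chain amino acid aminotransferase, averaged 228 ± 20.2 in wild type and 168 ± 37.0 in myb5, with ratios of 0.849 in the first set and 0.686 in the second.

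The remaining members with a family were a kinase, a motor and a gene derived from a transposase. ATSIK, a protein kinase, had 208, 218, 149 and 151 in wild type and 143, 123 and 109 in myb5, so its level was higher in the first set in both genotypes. AT5G66310, a kinesin-like microtubule motor, averaged 90.6 ± 10.2 in wild type and 60.7 ± 6.48 in myb5, with the lowest wild-type signal 1.19 times the highest myb5 signal. AT3G55350, of the PIF/Ping-Pong family of transposase-derived genes, averaged 108 ± 11.8 and 77.8 ± 8.97. AT5G66310 had a ratio of 0.562 in the first set and 0.765 in the second, against 0.671 and 0.771 for ATSIK and 0.752 and 0.721 for AT3G55350.

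The 7 genes named with no role were AT5G26790, AT3G17160, AT2G20940, AT5G30490, AT5G11280, AT4G11300 and AT5G51380, with ratios from 0.619 to 0.739. The brightest was AT3G17160, at 1466, 969.8, 1081 and 866 in wild type and 812, 766 and 594 in myb5. AT5G51380 was the most even within wild type, at 55.5 to 57.4, and its mutant signals were 51.1, 33.3 and 34.8. Here myb5 replicate 1 stood apart from the other mutant arrays, and the ratio was 0.905 in the first set and 0.610 in the second. Over the 7 genes the ratio ran from 0.654 to 0.905 in the first set and from 0.586 to 0.828 in the second.

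**Figure D3:**
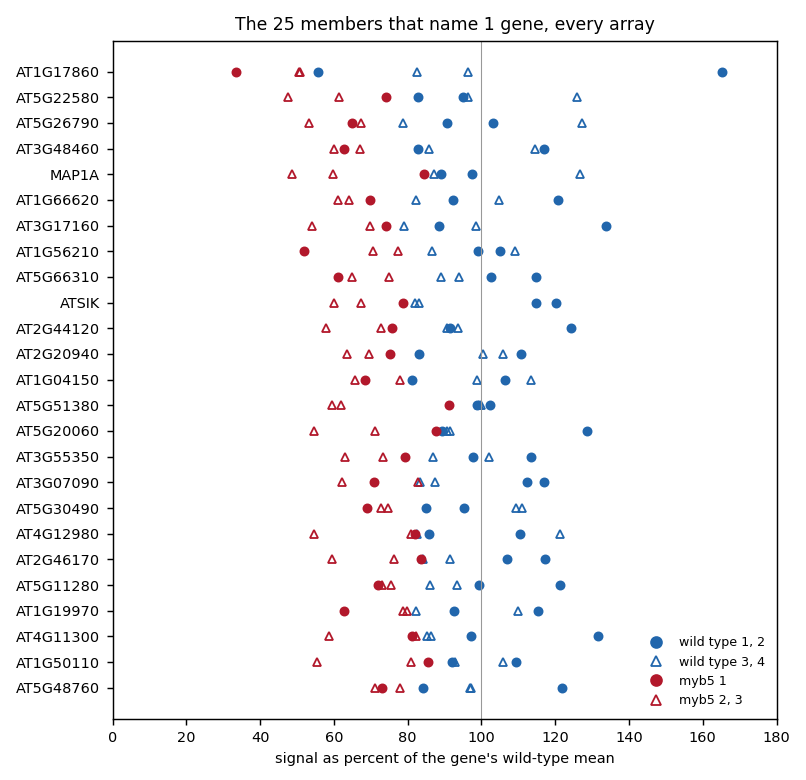
Signal of each of the 25 members naming 1 gene in every array, as a percent of that gene's wild-type mean (x axis), with wild type in blue, myb5 in red, filled circles for the first set and open triangles for the second. The red points lie left of the blue points in every row, with gaps that are small against the spread among the blue points in most rows.

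The probe set naming both AT1G63140 and AT1G62900, which belong to the O-methyltransferases, cannot tell these genes apart. It had 339, 177, 162 and 163 in wild type and 80.9, 131 and 122 in myb5. Wild-type replicate 1 was far above the other wild-type arrays, and the ratio was 0.313 in the first set and 0.780 in the second.

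The brightest unnamed members were 245629_at, 263667_at and 245750_at. Probe set 245629_at had 3738, 4483, 4490.1 and 4981 in wild type and 3320.2, 3450.5 and 2809.9 in myb5, a ratio of 0.722. Probe set 263667_at had 2709.8, 2949, 3185 and 2824 in wild type and 1972, 1897 and 1347 in myb5, a ratio of 0.596. Its wild-type arrays lay within a narrow band, and the lowest was 1.37 times the brightest myb5 array. Probe set 245750_at averaged 1261 ± 163 in wild type and 905 ± 93.1 in myb5. Outside the 5 members with the lowest ratios, 266996_at had the widest gap, 1.40, with 287, 379.5, 343 and 335 in wild type and 205, 126 and 139.9 in myb5. The ratio of 266996_at was 0.616 in the first set and 0.393 in the second. Within the sets, in the same order, 245629_at had 0.808 and 0.661, 263667_at 0.697 and 0.540, and 245750_at 0.676 and 0.739.

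Seen by array, the members' median signal relative to their wild-type mean was 97.9%, 105%, 93.3% and 93.9% in wild-type replicates 1 to 4. It was 73.9%, 66.3% and 64.6% in myb5 replicates 1 to 3. The corresponding medians over all probe sets with a wild-type mean of at least 50 were 95.3% to 102.1% for the wild-type arrays and 96.4% to 101.2% for the mutant ones. The highest myb5 signal fell in replicate 1 for 31 members, in replicate 2 for 16 and in replicate 3 for 18. The lowest wild-type signal fell in replicate 2 for 7 members and in each other wild-type array for 18 to 22. So over all 65 members, wide gaps included, the gap was most often set by myb5 replicate 1 and least often by wild-type replicate 2.

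**Figure D4:**
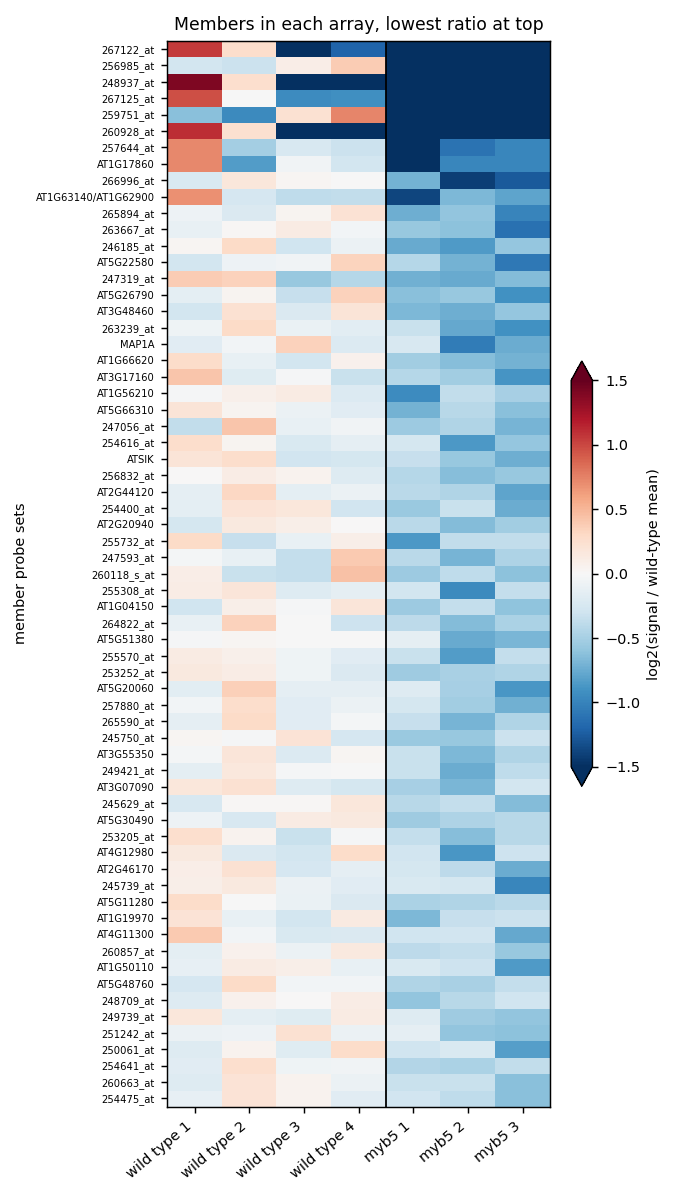
Heat map of the 65 members (rows, lowest ratio at the top) in the 7 arrays (columns), coloured by log2 of the signal over the member's wild-type mean, with colours saturating at 1.5 in either direction. Apart from saturated cells, rows are bluer right of the black line, in the myb5 arrays. Rows 248937_at and 260928_at reach the end of the colour scale in wild-type replicates 3 and 4 as they do in myb5. Rows 267122_at and 267125_at are clearly blue in wild-type replicates 3 and 4 as well.

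Within wild type, many members were brighter in the first set. Wild-type replicates 1 and 2 were both above replicates 3 and 4 in 21 members (32.3%) and both below in 6 (9.23%). Over all probe sets with a wild-type mean of at least 50 these shares were 23.1% and 35.3%. The rule could favour such patterns, so these shares are a description. PAP85 and OLEO3, the measured genes of late seed maturation, had a summed signal of 836 to 7343 over the wild-type arrays and 628 to 5416 over the mutant ones, with both high values of wild type and the high value of myb5 in the first set. The part of this in the members' differences was not tested.

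The genotypes were then compared within each set, which share no array. The rule itself puts every member below 1 in both sets, so only the sizes are described. The median ratio was 0.702 in the first set, which holds 1 myb5 array, and 0.699 in the second, which holds 2. The ratio was at most 0.75 in both sets in 27 members, in the first set only in 18 and in the second only in 20. Named members at or under 0.75 in both sets numbered 7 of 25. The highest ratios were 0.964 in the first set and 0.864 in the second, so some members were nearly level between the genotypes in 1 set. The rule applied to the first set alone took 690 probe sets (3.03% of all), and applied to the second alone 422 (1.86% of all). They shared 63, which is 9.13% of the first list and 14.9% of the second. The mirrored rule took 1082 (4.76%) and 646 (2.84%), which shared 108, or 9.98% and 16.7%. Of the probe sets with a wild-type mean of at least 50, 5.64% met the rule in the first set and 3.54% in the second, and 7.44% and 4.26% met the mirrored rule. Read in the set that did not choose them, the 690 had a median ratio of 0.956 and the 422 of 0.947, while the mirrored lists had 1.08 and 1.1, against 0.996 and 1.0 over all probe sets with a wild-type mean of at least 50.

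**Figure D5:**
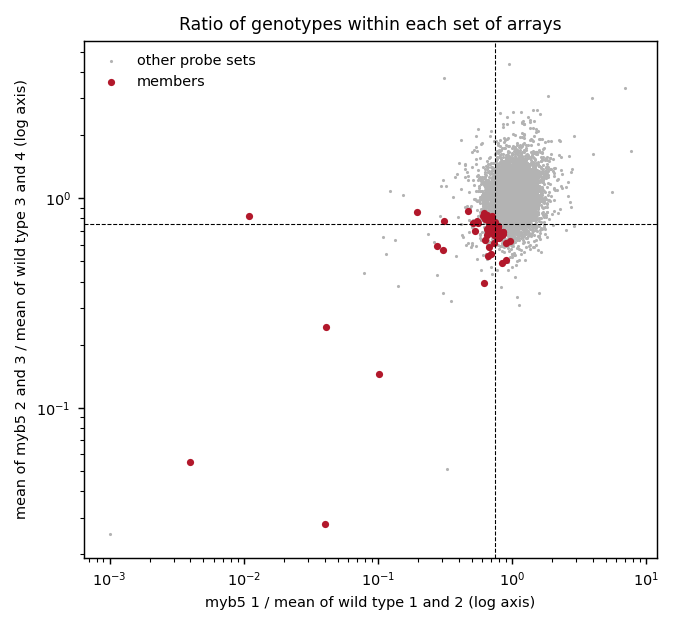
Ratio of myb5 to wild-type signal within the first set (x axis, myb5 replicate 1 over the mean of wild-type replicates 1 and 2) against the second set (y axis, mean of myb5 replicates 2 and 3 over the mean of wild-type replicates 3 and 4), both on log scales, for members (red) and all other probe sets with a wild-type mean of at least 50 (grey), with dashed lines at 0.75. Most members cluster near the crossing of the lines, and 4 of them lie far below 0.75 in both sets.

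The limits of the rule passed through a continuous range of values. The members just inside the ratio limit were 254475_at, 254641_at and 260663_at, at 0.747, 0.745 and 0.745. Just outside lay 256000_at, AT1G30890 and COS1, at 0.752, 0.754 and 0.754. Just inside the limit on level were 247319_at, AT5G51380 and 264822_at, with mean wild-type signals of 53.3, 56.1 and 57.7. Just outside lay QQS, AT1G21010 and AT5G65370, at 49.8, 44.2 and 42.6, and QQS had a ratio of 0.370.

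In the genome, the 25 named genes were spread over the 5 chromosomes. Chromosomes 1 to 5 held 6, 4, 5, 2 and 8 of them, or 24.0%, 16%, 20%, 8.0% and 32.0%. Of all probe sets naming 1 protein-coding gene, these chromosomes held 26.2%, 15.3%, 20.4%, 14.4% and 23.2%. No 2 of them were direct neighbours: the closest pair, MAP1A and AT2G46170 on chromosome 2, had 92 protein-coding genes between them. The named member nearest to the MYB5 locus on chromosome 3 was AT3G17160, with 408 protein-coding genes between. Members that do not name 1 gene were not placed on the genome, so their distance from MYB5 is not known here. In the probe annotation used, in which many probe sets are unnamed, no second probe set names a member gene.

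Lists of genes that the rule did not choose were looked at in the same fit. Those of mucilage genes, of flavonoid and tannin genes and of regulators hold genes through which MYB5 is best known. The others hold markers of seed parts, late seed maturation, other tissues and stress. Of 121 genes on all 9 lists, 25 were named alone by a probe set in the annotation used, and are called measured here. The other genes could be read by unnamed probe sets, which include 39 members, so whether any is a member was not tested. Of the 25, 0 were members, against 0.286% of all probe sets. At the limma adjusted threshold of 0.05, 0 of the 25 were lower and 0 were higher, against 1 of all 22746 probe sets called (0.0044%). At such shares these counts of 0 say little about the listed genes. The unadjusted limma p was under 0.05 for 0 of them, against 3.46% of all probe sets. Among genes of mucilage, 7 of 20 were measured, with a median log2 difference of -0.11 and 5 of 7 below 0. The difference of 1 of these 5 rounded to 0, and the median over all probe sets was 0. UUAT1, a Golgi transporter of UDP-uronic acids, had 994, 609, 618 and 800.1 in wild type and 635, 540.2 and 466 in myb5. It had the smallest unadjusted p of that list (0.080), and its genotypes overlapped. PME58, a pectin methylesterase, averaged 5541 ± 1301 over the wild-type arrays against 6627 ± 1447 over the mutant ones. MUCI21, a mucilage xylosyltransferase, was dim in both genotypes, at 56.7 ± 11.1 in wild type and 52.1 ± 18.6 in myb5.

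Among flavonoid and tannin genes, 5 of 16 were measured, with a median log2 difference of 0.07. BAN, the anthocyanidin reductase of tannin synthesis, was bright in every array, at 2684 to 6754 among wild-type arrays and 3424 to 6533 among mutant ones. Regulators of the MYB5 network had 3 of 21 measured, and DF1, MYC1 and TRY had log2 differences of 0.30, -0.31 and 0.18.

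Markers of other seed parts and tissues were measured in few genes. Endosperm markers had 3 of 12 measured with a summed signal of 37.1 to 60.7 among wild-type arrays and 45.5 to 79.9 among mutant ones, and AGL62 was at 9.74 or below in every array. The embryo marker CLV3 was at 7.54 or below. The fruit wall marker ALC was at 49.3 to 117 and 70.9 to 119.7 in the same order, and RCA, the Rubisco activase of green tissue, was at 222 to 573 and 145 to 473. The stress genes PDF1.2 and COR15A summed to 9.99 to 29.2 and 18.4 to 26.5. In each of these lists the genotypes overlapped, and the part of cell types without a measured marker was not tested.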

How the data were processed

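The authors deposited a linear intensity for each probe set on each array. The software behind it is not given in the sources. Per the labels' protocols, total RNA was amplified in 2 cycles from an oligo(dT) primer and labelled with biotin. From the values, each array's mean after trimming 2% of probe sets at each end was 150.0. No detection call was used, and the number of arrays limits the precision. The 64 control probe sets were left out. The rule was applied to the deposited signals. For log2 differences, log2(intensity + 16) was quantile normalized and fitted with limma 3.58.1 in R 4.3.3, with genotype as the only term and Benjamini-Hochberg adjustment over 22746 probe sets. The fit was tested on simulated data. Differences are myb5 minus wild type, and the added constant understates those of dim probe sets. Of the probe sets, 13513 name 1 gene, 503 several, and 8730 are unnamed here. The members and lists were chosen with earlier results of these data known. Genes named were all 25 members naming 1 gene, the unnamed members with the 6 lowest ratios and the 4 brightest, those nearest the limits, and list members with the smallest p. 266996_at, the O-methyltransferase pair and the overlapping probe sets of the closing section were chosen after their values were seen. Annotation came from the array's table and RefSeq's TAIR10.1 gene table. No sequences were used. Alternatives were other scalings, limits and pseudocounts, a filter on dim probe sets, replicate number as a block, a term for the sets of arrays, and leaving out each array.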

Additional observations from a re-analysis of the deposited data

Results flagged for a closer look

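In 5 of 59 wild-type groups checked, 1 array lay far from the other 3 on the normalized log2 scale; chance flags about 1 in 20 groups, and part of these probe sets had been picked by their values. Both members concerned had a high wild-type replicate 2. AT2G44120 lay at 10.09 there, against 9.72 to 9.77 in its fellow wild-type arrays, and AT5G20060 at 11.08, against 10.7 to 10.76. MUCI21 of the mucilage list lay at 6.5 in wild-type replicate 1, against 6.08 to 6.14. In wild-type replicate 3, IKU2 lay at 4.68, against 4.26 to 4.33, and CLV3 at 4.11, against 4.5 to 4.55; both are dim.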

How the results depend on the processing

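Values within the sets of arrays for the count were added after seeing the data. The number of probe sets meeting the rule was 65. It was 151 with arrays divided by their medians, 23 and 109 at ratio limits of 0.67 and 0.8, and 690 and 422 in the first and second set alone, where fewer arrays overlap less often. Leaving out each array gave 77 to 581. Omitting myb5 replicates 1, 2 and 3 in turn gave 581, 95 and 140, and the count was 105, 77, 183 and 137 without wild-type replicates 1 to 4. Of the 65 members, 47 to 62 still met the rule when an array was left out. The other settings gave 49 to 83. The median log2 difference of the members, -0.47, was -0.56 to -0.39 over all settings. Of the log2 differences of 34 members followed, 11 moved by more than the spread between replicates in the first set alone, 7 in the second alone, 3 at an added constant of 1 and 7 at 64. MAP1A went from -0.63 to -0.15 in the first set and 248937_at from -1.88 to -0.19 in the second. On the deposited signals, leaving out arrays cannot turn their sign, since the rule allows no overlap. The fit called 1 probe set, 256985_at. Leaving out each array gave 1 to 2 calls, the 2 when myb5 replicate 1 was omitted. A fit with replicate number as a block called 0 (256985_at at -4.05, limma adjusted p = 0.179), the median log2 difference of the members was -0.51, and 1362 probe sets had an unadjusted p under 0.05. Deviations of same-numbered arrays correlated at 0.63, -0.3 and 0.55, so the numbers are not shown to pair the samples.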

Other observations

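Some bright probe sets had lower ratios than most members but overlapped between the genotypes, so the rule did not take them. They were looked for after the members had been seen, as probe sets with a wild-type mean of at least 50 and a ratio of at most 0.3, and 14 were found. In 11 of the 14, wild-type replicates 1 and 2 were both above replicates 3 and 4.

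AT1G62070 had the lowest ratio of these. Its signals were 5101 and 4047 in wild-type replicates 1 and 2, 0.985 and 92.8 in replicates 3 and 4, and 2.35, 0.795 and 1.55 in myb5 replicates 1 to 3. Of the first set, both wild-type arrays were bright and the myb5 array was as dim as the other mutant arrays. Wild-type replicate 3 alone kept it out of the rule. A probe set naming AT1G62220, AT1G62080, AT1G62060 and AT1G62000, which cannot tell these genes apart, had 7219, 7863, 1192 and 4541 in wild type and 2482, 194 and 97.3 in myb5. It overlapped only because myb5 replicate 1 lay above wild-type replicate 3, and within each set every myb5 array was below every wild-type array. Neither passed in the fit (log2 differences of -4.65 and -3.49, limma adjusted p = 1.0 for each).

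Others of the 14 were bright mainly in wild-type replicate 2. AT1G04560 had 4957 there, 957 in myb5 replicate 1 and at most 82.5 in the other arrays. AT4G31830 had 691 and 122 in the same arrays and at most 7.97 elsewhere. In 9 of the 14, wild-type replicate 2 was the brightest of all 7 arrays.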
